A study of Mus musculus with 12 samples.

Results

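Cytochrome P450 genes encode haem-containing monooxygenases, and 83 protein-coding members of the family were followed here in mouse lung. They were taken by symbol, as every protein-coding gene called Cyp followed by a digit apart from Cyp51, out of 35599 genes in the deposited table. Of the 83, 28 reached an FPKM (fragments scaled to gene length and library depth) of at least 1 in at least 4 of the 12 libraries and were tested. Lung RNA was sequenced from 3 groups with 4 libraries each. ND-RHL mice had been given bleomycin, which causes lung fibrosis, plus lipopolysaccharide (LPS), an inflammatory component of bacteria, and afterwards liposomes that carried nintedanib, a kinase inhibitor, and dexamethasone, a glucocorticoid, and bore hyaluronic acid and RGD peptides. AE-PF mice had the same bleomycin and LPS challenge, a model of acute exacerbation of pulmonary fibrosis, without the liposomes. Saline mice were the control. Strain, sex, age, doses and times are not given in the labels, which also do not say whether each library came from a separate animal, so p-values measure the spread between libraries.

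P450 enzymes sit in the membrane of the endoplasmic reticulum or the mitochondrion and insert an oxygen atom into their substrate, with electrons from a reductase. Families 1, 2 and 3 act mainly on drugs and inhaled chemicals, family 4 on fatty acids and eicosanoids, and families with higher numbers mostly on sterols, bile acids, retinoic acid and vitamin D. In mouse lung, club cells of the conducting airways are the best known site of xenobiotic P450s, and Cyp2f2 is the enzyme that turns naphthalene into its toxic epoxide there.

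The 12 libraries held 16152379 to 21667129 counted fragments, as inferred from the FPKM values. ND-RHL library 4 and AE-PF library 2 stood apart by transcripts of stratified squamous epithelium: the summed FPKM of 9 such markers was 6268 and 1851 there, against at most 47.3 in any other library. The same 2 libraries were highest for 8 skeletal muscle markers, with summed FPKM of 1838 and 748, against at most 142 elsewhere. Levels of lung epithelial markers differed between libraries. Scgb1a1, the secreted club cell protein, was between 4417 and 38054 FPKM. The summed FPKM of 10 ciliated cell markers was 200 to 319 in ND-RHL, 86.7 to 125 in AE-PF and 303 to 351 in saline libraries. Some single markers were near the floor, such as the secretory cell marker Reg3g at 0.0293 FPKM in ND-RHL library 2. Of the hepatocyte markers, Alb was at 0.0945 to 0.466 FPKM and Apoa1 at 0 to 0.233 in all 12, so that transcripts of liver, the main P450 organ, were near 0. Trf was the only 1 of the 12 hepatocyte markers in the table that reached the filter, at 116 to 175 FPKM.

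The promoter windows of the 3 most abundant members are shown because these genes carried most of the change in P450 RNA. The window of the aryl hydrocarbon receptor target Cyp1a1, which had the largest log2(FPKM + 1) fall in AE-PF lung, is shown beside them. Each runs from 250 bases before to 50 bases after the RefSeq start on GRCm38.p6, 5′ to 3′ on the strand of the gene, and capitals mark a match to 1 of 4 motifs. The motifs were GCGTG (the aryl hydrocarbon receptor core), TGTTTNC (a forkhead core), TTNNGCAA (a C/EBP core) and CAAGTG (an NKX core), read on both strands. Cyp2f2 is chr7:27119705-27120004 (plus), Cyp4b1 chr4:115647672-115647971 (minus), Cyp2b10 chr7:25897408-25897707 (plus) and Cyp1a1 chr9:57697363-57697662 (plus). The Cyp1a1 window lies downstream of the start of that gene in the GENCODE annotation, 57687928, because the RefSeq start used differs from it.
Cyp2f2: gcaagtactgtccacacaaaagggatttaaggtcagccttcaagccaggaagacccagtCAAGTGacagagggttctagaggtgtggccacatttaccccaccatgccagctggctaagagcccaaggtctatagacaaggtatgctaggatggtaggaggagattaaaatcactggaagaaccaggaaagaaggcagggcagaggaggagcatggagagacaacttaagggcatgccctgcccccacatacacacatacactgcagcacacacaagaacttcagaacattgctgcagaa
Cyp4b1: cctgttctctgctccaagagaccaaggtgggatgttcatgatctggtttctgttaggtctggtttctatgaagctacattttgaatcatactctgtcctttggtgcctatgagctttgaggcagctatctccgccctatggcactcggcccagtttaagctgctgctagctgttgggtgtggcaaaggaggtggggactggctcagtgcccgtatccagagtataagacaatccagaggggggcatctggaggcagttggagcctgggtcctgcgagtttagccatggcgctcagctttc
Cyp2b10: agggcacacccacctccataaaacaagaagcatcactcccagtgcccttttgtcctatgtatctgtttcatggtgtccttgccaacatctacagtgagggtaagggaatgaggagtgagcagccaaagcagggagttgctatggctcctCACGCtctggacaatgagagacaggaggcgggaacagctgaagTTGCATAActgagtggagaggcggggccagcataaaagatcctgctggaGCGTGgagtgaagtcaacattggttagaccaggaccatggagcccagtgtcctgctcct
Cyp1a1: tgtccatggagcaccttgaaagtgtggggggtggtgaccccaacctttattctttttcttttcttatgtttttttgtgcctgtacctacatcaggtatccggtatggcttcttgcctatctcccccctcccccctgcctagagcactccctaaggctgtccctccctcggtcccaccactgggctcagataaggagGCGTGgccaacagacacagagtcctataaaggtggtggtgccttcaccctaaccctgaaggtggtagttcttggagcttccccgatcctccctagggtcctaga
The Cyp2f2 window held CAAGTG starting at -191, and the Cyp1a1 window GCGTG at -54. The Cyp2b10 window held GCGTG at -9 and on the other strand at -101, and the C/EBP core on the other strand at -58. The Cyp4b1 window held no match. No match overlapped another in these 4 windows. RefSeq windows were found for 23 of the 28 tested members. GCGTG was in 9 of these 23 and in 32.4% of all 32851 promoter windows, TGTTTNC in 3 and in 20.5%, TTNNGCAA in 4 and in 10.8%, and CAAGTG in 4 and in 13.6%.

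The summed FPKM of the 83 genes was lowest in AE-PF lung. It was 1188, 813, 1071 and 749.8 in ND-RHL libraries 1 to 4, 296, 263, 345 and 402 in AE-PF libraries, and 1445, 1517, 1447 and 1366 in saline libraries. The 3 groups did not overlap. Cyp2f2 alone made up 37.0% to 47.1% of this sum in ND-RHL lung, 16.0% to 28.6% in AE-PF lung and 48.0% to 51.5% in saline lung. Together with Cyp4b1 and Cyp2b10 it made up 73.4% ± 6.09 in ND-RHL lung, 49.9% ± 12.1 in AE-PF lung and 81.1% ± 2.88 in saline lung (SD, n = 4 each). Without these 3 genes the sum was 187 to 363 in ND-RHL lung, 152 to 173 in AE-PF lung and 230.3 to 306 in saline lung. In whole lung, fewer cells of a type and less RNA per cell cannot be told apart.

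**Figure D1:**
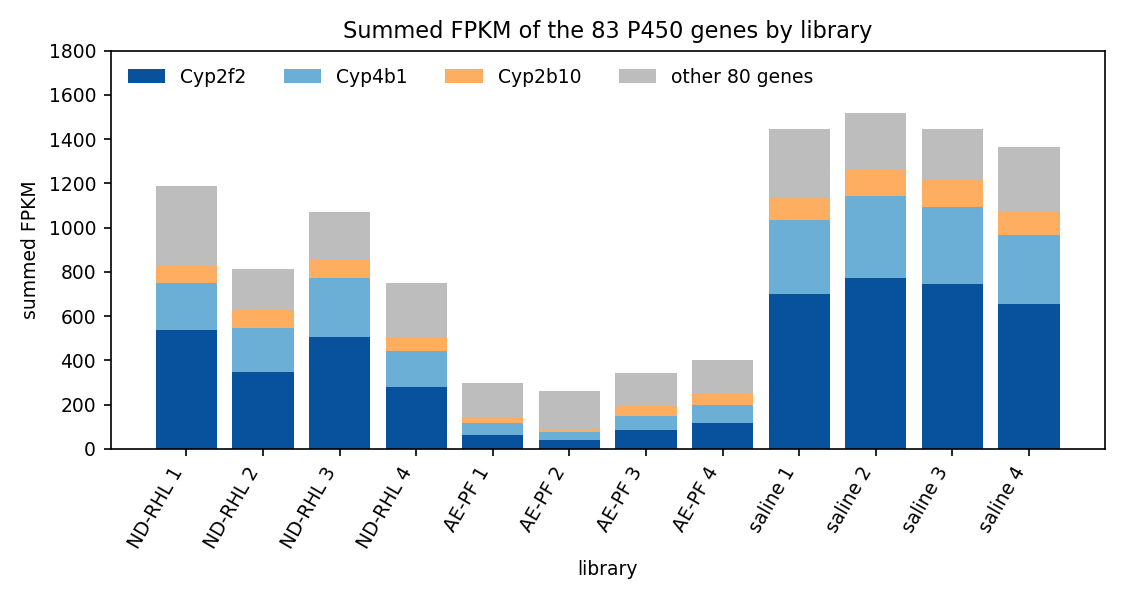
Summed FPKM of the 83 P450 genes (vertical axis) in each of the 12 libraries, split into Cyp2f2, Cyp4b1, Cyp2b10 and all others. The AE-PF bars stand at 263 to 402, below the ND-RHL bars at 749.8 to 1188 and the saline bars at 1366 to 1517.

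The first comparison asked what the bleomycin and LPS challenge changed. Of the 28 P450 genes tested, 15 were lower in AE-PF than saline lung and 3 higher, by limma on log2(FPKM + 1) with an adjusted p under 0.05. Over all 15164 genes tested, 30.2% were lower and 26.4% higher; among the 28 the shares were 53.6% and 10.7%. The median log2 difference was -0.31 over the 28 and -0.03 over all genes. By log2(FPKM + 1) difference, the members that fell most were enzymes of xenobiotics and fatty acids, with Cyp1a1, Cyp2f2, Cyp2a5, Cyp2e1 and Cyp4b1 at the head. The largest rise was that of Cyp7b1, which hydroxylates oxysterols. Scaling libraries to equal FPKM totals moved the median of all genes by more than 0.1, to 0.08. The share higher among all called genes became 63.0%, against 46.7%. With this scaling 14 of the 28 were lower and 6 higher (50% and 21.4%), against 20.86% and 35.45% of all genes tested.

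The second comparison asked how treated and untreated challenged lungs differed. Of the 28, 14 were higher in ND-RHL than AE-PF lung and 4 lower, against 24.3% and 17.4% of all genes tested. The median log2 difference was 0.46 over the 28 and 0.06 over all genes. With equal FPKM totals, 13 of the 28 were higher and 4 lower (46.4% and 14.3%), against 15.56% and 25.55% of all genes tested. The share higher among all called genes was then 37.8%, against 58.2%. After quantile normalisation 13 of the 28 were higher and 4 lower, against 18.39% and 21.25% of all genes tested. Of all called genes, 46.4% were then higher.

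A last comparison set treated lungs against the saline control. Of the 28, 2 were higher in ND-RHL than saline lung and 3 lower, against 13.3% and 8.65% of all genes tested, and the shares among the 28 were 7.14% and 10.7%. The lower count moved with AE-PF libraries, which enter this comparison through the shared estimate of spread. It was 6 (21.4% of the 28, against 9.96% of all genes) without AE-PF library 2, and 7 (25% against 9.94%) with only the ND-RHL and saline libraries in the fit. Without AE-PF library 4 it was 5 (17.9% against 8.21%), as it was without ND-RHL library 1 (17.9% against 7.58%), and without AE-PF libraries 1 and 2 it was 7 (25% against 11.5%). The median log2 difference was -0.02 over the 28 and 0.03 over all genes. With equal FPKM totals 67.2% of all called genes were higher, against 60.5%, and after quantile normalisation 43.5%. AE-PF libraries enter both of the first 2 comparisons and saline libraries the first and the last, so that a low AE-PF value moves the first 2 in opposite directions.

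**Figure D2:**
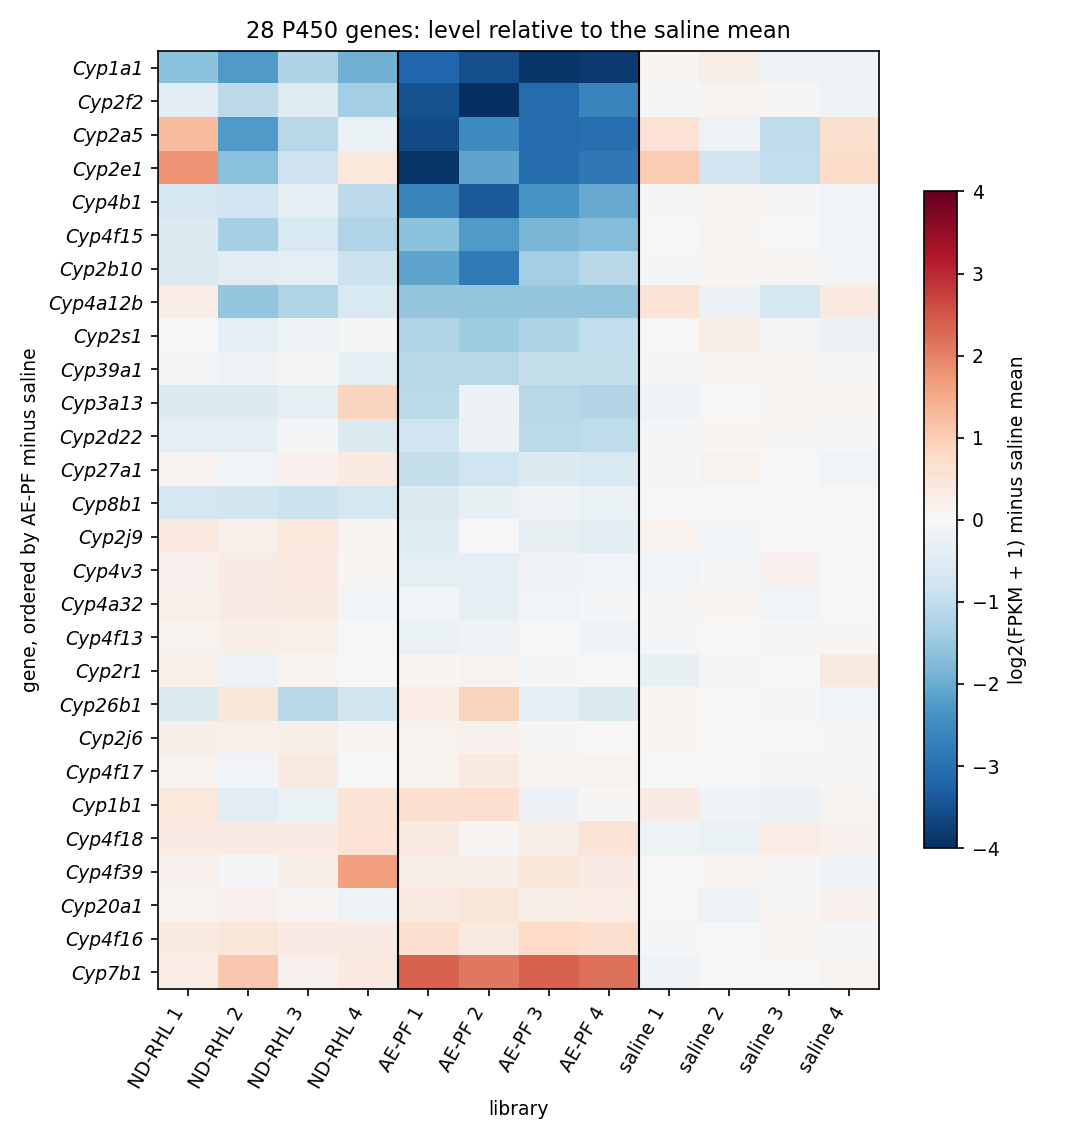
Level of each of the 28 tested P450 genes (rows) in each library (columns), as log2(FPKM + 1) minus the saline mean, with blue lower and red higher. In the AE-PF columns blue is strong for genes such as Cyp1a1 and Cyp2f2, with log2 differences of -3.60 and -3.31 from saline. It is faint for others of the 15 called lower, such as Cyp4v3 at -0.24. Red marks Cyp7b1 there.

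**Figure D3:**
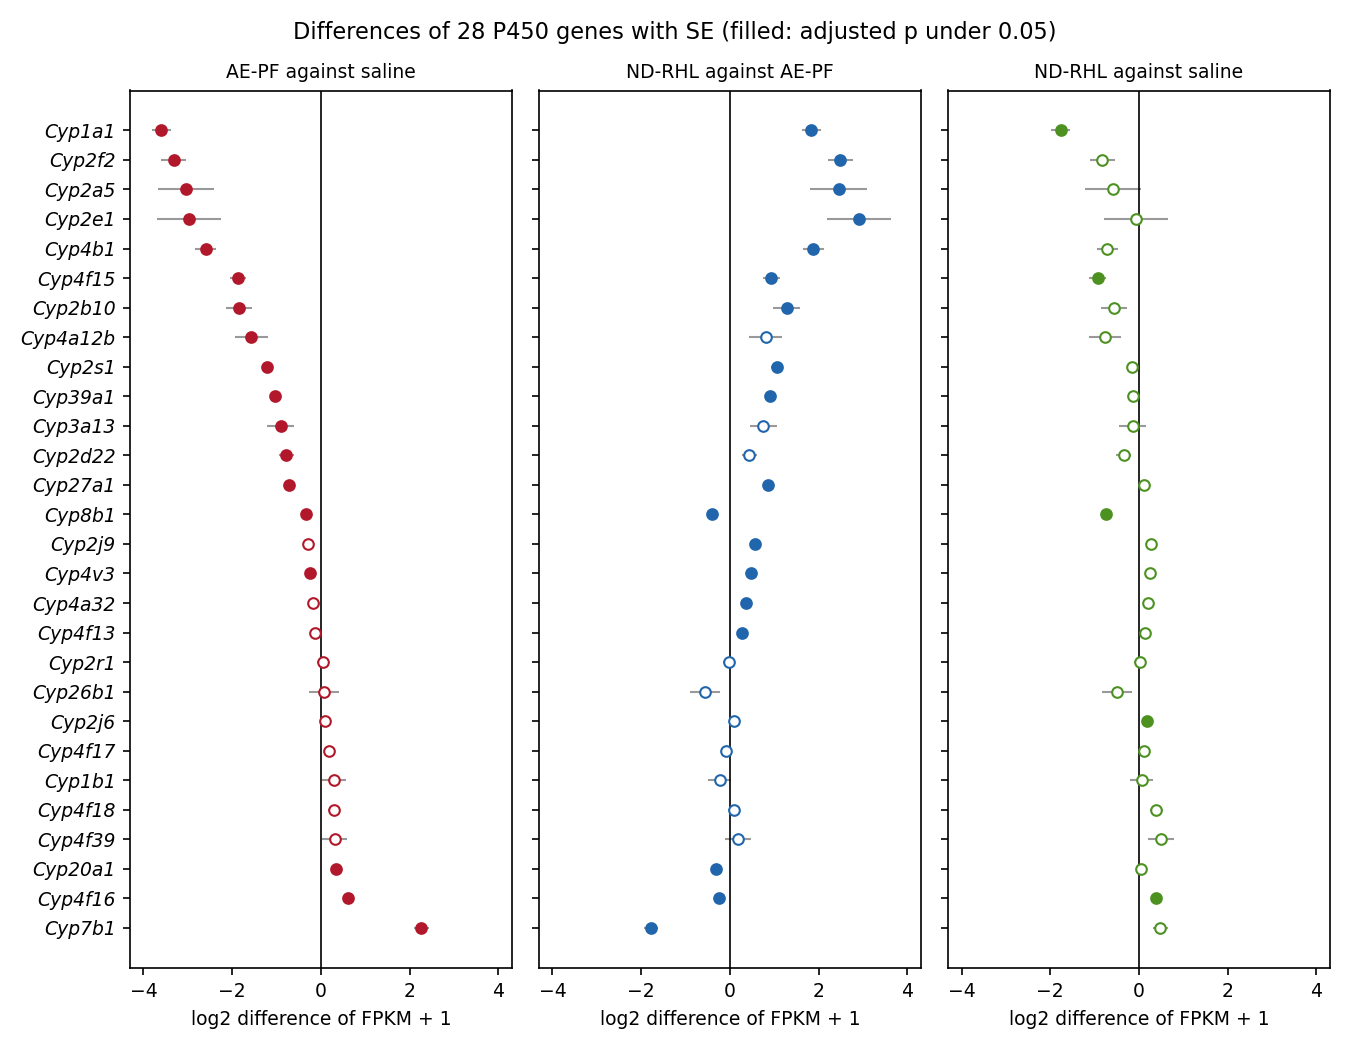
Log2 difference of FPKM + 1 (horizontal axes) with its SE for the 28 tested genes in the 3 comparisons. Filled points passed an adjusted p of 0.05; of these, 3 and 15 lie to the right and left of 0 for AE-PF against saline, 14 and 4 for ND-RHL against AE-PF, and 2 and 3 for ND-RHL against saline.

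Among the 34 members of families 2 and 3 that act on drugs and inhaled chemicals, 6 were tested. All 6 were lower in AE-PF than saline lung and 4 higher in ND-RHL than AE-PF lung, against 30.2% and 24.3% of all genes. By limma 0 of the 6 passed between ND-RHL and saline lung, where 13.3% of all genes were higher and 8.65% lower. Of the 6, 1 had an unadjusted p under 0.05 there. Limma-voom also called 0 of the 6 there, while other settings called Cyp2f2, Cyp2b10, Cyp2d22 or Cyp3a13, as given with each gene. Cyp2f2 (chromosome 7, 27119909 to 27133660, GRCm38) stood at 537, 347, 505 and 278 FPKM in ND-RHL libraries 1 to 4, at 63.1, 42.1, 83.7 and 115 in AE-PF libraries, and at 701, 772, 745 and 655 in saline libraries. The groups were fully separate, with ND-RHL in between. Mean Cyp2f2 FPKM was 9.46-fold lower in AE-PF than saline lung (log2 difference -3.31 ± 0.28 SE, adjusted p = 5.48e-06) and 5.49-fold higher in ND-RHL than AE-PF lung (2.48 ± 0.28, adjusted p = 0.000102). Between ND-RHL and saline the log2 difference was -0.83 ± 0.28 with an adjusted p of 0.0553, and it passed in 7 of 22 alternative settings, with 0.0154 to 0.0490, among them leaving out AE-PF library 2, AE-PF library 4 or ND-RHL library 1. The gene Gm15883 overlaps Cyp2f2 exons on the other strand, and the sources used here do not state whether counting used strand.

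Cyp2b10, an enzyme best known in liver as a target of the receptor CAR, was at 75.7, 81.2, 86.1 and 61.1 FPKM in ND-RHL lung, at 25.1, 15.01, 43.4 and 51.6 in AE-PF lung and at 106, 118, 122 and 104 in saline lung. The groups did not overlap. The log2 difference was -1.85 ± 0.30 for AE-PF against saline (adjusted p = 0.000345), 1.28 ± 0.30 for ND-RHL against AE-PF (0.00603) and -0.57 ± 0.30 for ND-RHL against saline (0.198). The last passed in 2 settings, at 0.00845 with only the ND-RHL and saline libraries in the fit and at 0.00527 without AE-PF libraries 1 and 2. Nr1i3, which encodes CAR, had 0 FPKM as its saline mean and was not tested.

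Cyp2a5, the coumarin and nicotine hydroxylase of the mouse, was at 104, 8.15, 19.3 and 35.3 FPKM in ND-RHL libraries 1 to 4, at 2.69, 6.70, 4.16 and 4.45 in AE-PF libraries and at 63.6, 37.1, 20.5 and 67.5 in saline libraries. Cyp2e1, the ethanol-inducible P450, was at 75.6, 5.88, 11.5 and 28.2, at 0.490, 4.08, 1.59 and 2.05, and at 43.1, 11.8, 10.1 and 35.8 FPKM in the same ND-RHL, AE-PF and saline libraries. For both genes every AE-PF library lay below every other library, while ND-RHL and saline libraries overlapped widely. The log2 difference for AE-PF against saline was -3.04 ± 0.63 for Cyp2a5 (adjusted p = 0.00179) and -2.98 ± 0.72 for Cyp2e1 (0.00436). For ND-RHL against AE-PF it was 2.45 ± 0.63 (0.0101) and 2.91 ± 0.72 (0.00797). The Cyp2a5 call for ND-RHL against AE-PF was lost without AE-PF libraries 1 and 2, at an adjusted p of 0.0543. Of the 100-base windows of Cyp2a5, 14.4% also occur in other genes, most often Cyp2a4, and the handling of such reads is not stated.

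Over the 8 ND-RHL and saline libraries, Cyp2e1 and Cyp2a5 were ordered much like Cfd, an adipocyte gene, and Bpifa1, a secreted protein of the upper airway. ND-RHL library 1 was highest for all 4 genes, with 538 FPKM of Cfd and 1818 of Bpifa1. Saline libraries 1 and 4 came next, with 377 and 298 FPKM of Cfd and 1738 and 1567 of Bpifa1. ND-RHL library 2 was lowest for all 4, with 12.1 FPKM of Cfd and 2.52 of Bpifa1. Of 9 adipocyte markers tested, 8 were lower in AE-PF than saline lung and 5 higher in ND-RHL than AE-PF lung. Over all genes tested these shares were 30.2% and 24.3%. Between ND-RHL and saline 0 of the 9 passed by limma, 0 also at an unadjusted p under 0.05. The summed FPKM of the adipocyte list was 31.1 to 964 in ND-RHL, 11.2 to 45.4 in AE-PF and 142 to 731 in saline libraries. Of 8 cardiac muscle markers, 8 were lower in AE-PF than saline lung and 6 higher in ND-RHL than AE-PF lung, with summed FPKM of 151 to 774 in ND-RHL, 33.5 to 65.1 in AE-PF and 363 to 644 in saline libraries. The part of fat, heart or upper airway transcripts in these P450 values was not tested.

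**Figure D4:**
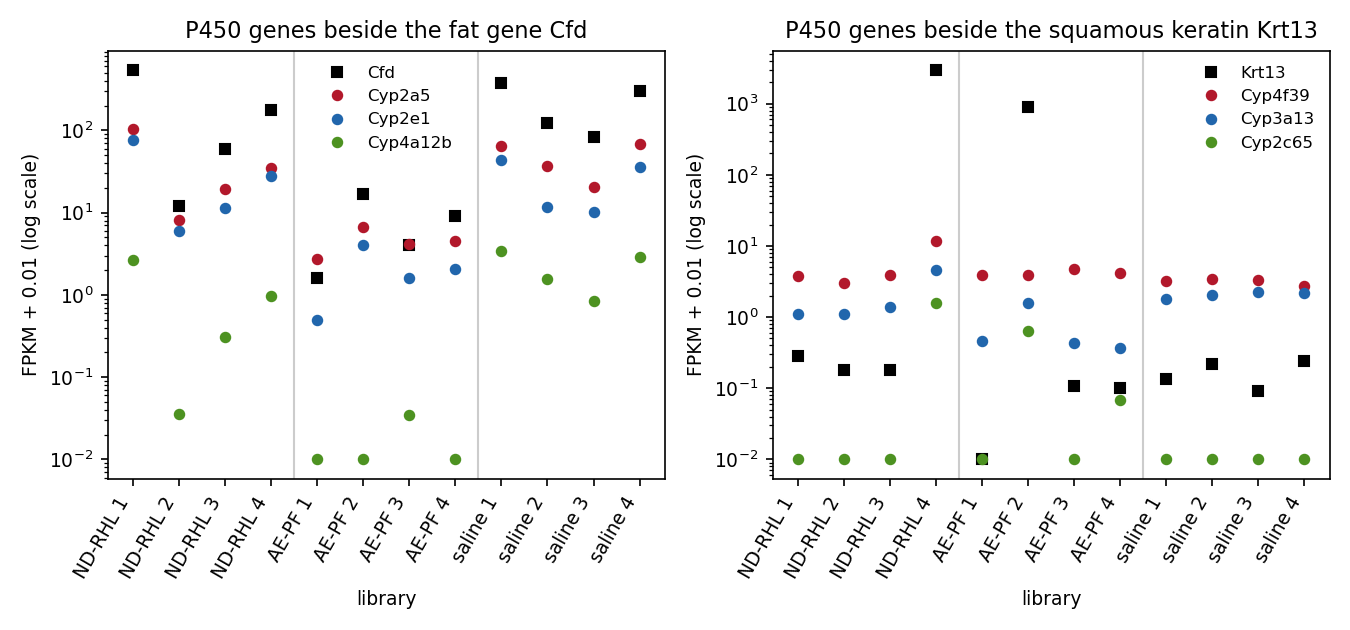
FPKM + 0.01 on a log axis in each library, for Cfd with Cyp2a5, Cyp2e1 and Cyp4a12b (left) and for Krt13 with Cyp4f39, Cyp3a13 and Cyp2c65 (right). On the left ND-RHL library 1 and saline libraries 1 and 4 are high for all 4 genes and AE-PF libraries low; on the right AE-PF library 2 and ND-RHL library 4 stand out for Krt13, at 899 and 2948.

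Cyp2d22, of the subfamily that holds the debrisoquine hydroxylase in human, averaged 14.8 ± 2.48 FPKM in ND-RHL, 10.9 ± 3.45 in AE-PF and 18.9 ± 1.01 in saline lung (SD, n = 4 each). It was lower in AE-PF than saline lung (log2 difference -0.78, adjusted p = 0.00216), and its difference between ND-RHL and AE-PF was 0.44 (0.0544), which passed at 0.00236 without AE-PF library 2 and at 0.0360 without ND-RHL library 4. Its difference between ND-RHL and saline (-0.34, 0.170) passed in 3 settings, with 0.0295 to 0.0465, 1 of them leaving out only AE-PF library 2. Cyp3a13 was at 1.10, 1.09, 1.38 and 4.61 FPKM in ND-RHL, at 0.457, 1.57, 0.420 and 0.355 in AE-PF and at 1.76, 2.04, 2.25 and 2.19 in saline lung. Its highest values in both challenged groups were in the 2 libraries with squamous and skeletal muscle transcripts. The Cyp3a13 difference between AE-PF and saline (log2 -0.90, adjusted p = 0.0251) was lost in 6 of 21 alternative settings, with 0.0537 to 0.0623, among them leaving out saline library 3 or 4 or AE-PF library 1, 3 or 4. For ND-RHL against AE-PF the adjusted p of 0.0665 became 0.0245 without AE-PF library 2 and 0.000912 with AE-PF library 2 and ND-RHL library 4 both left out. With these 2 left out the difference between ND-RHL and saline was -0.49 (adjusted p = 0.00494), against -0.14 (0.767) with all libraries.

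Of the 3 family 1 members, which answer to the aryl hydrocarbon receptor, Cyp1a1 and Cyp1b1 were tested. Cyp1a1 (chromosome 9, 57687928 to 57703824) oxidises polycyclic aromatic hydrocarbons. It was at 7.47, 4.55, 10.4 and 5.96 FPKM in ND-RHL lung, at 1.94, 1.33, 0.806 and 0.872 in AE-PF lung and at 26.9, 30.6, 22.8 and 22.8 in saline lung. No group overlapped another. Mean Cyp1a1 FPKM was 20.8-fold lower in AE-PF than saline lung (log2 difference -3.60 ± 0.21, adjusted p = 1.05e-06). It was 5.73-fold higher in ND-RHL than AE-PF lung (1.83 ± 0.21, adjusted p = 0.000119) and 3.64-fold lower in ND-RHL than saline lung (-1.77 ± 0.21, adjusted p = 0.000511). Among the 28, Cyp1a1 had the largest log2(FPKM + 1) difference both for AE-PF and for ND-RHL against saline. By mean FPKM, Cyp4a12b fell further in AE-PF than saline lung, 350-fold, from 2.16 to 0.00617, which is near the floor.

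Cyp1b1, expressed in mesenchymal cells and also a receptor target, was at 4.49, 2.07, 2.40 and 5.02 FPKM in ND-RHL, at 5.64, 5.54, 2.54 and 3.26 in AE-PF and at 4.13, 2.63, 2.49 and 3.47 in saline lung. The groups overlapped, and it passed in no comparison (adjusted p = 0.364, 0.506 and 0.890). The ratio of Cyp1a1 to Cyp1b1 FPKM was 1.19 to 4.31 in ND-RHL, 0.240 to 0.344 in AE-PF and 6.50 to 11.6 in saline lung. Ahr, the receptor gene itself, averaged 23.8 ± 5.36 FPKM in ND-RHL, 21.9 ± 3.63 in AE-PF and 21.1 ± 0.900 in saline lung and did not pass (adjusted p = 0.869, 0.621 and 0.564 for AE-PF against saline, ND-RHL against AE-PF and ND-RHL against saline). Ahr was named after its values were seen. Cyp1a2, the member not tested, had 8 fragments over all 12 libraries.

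**Figure D5:**
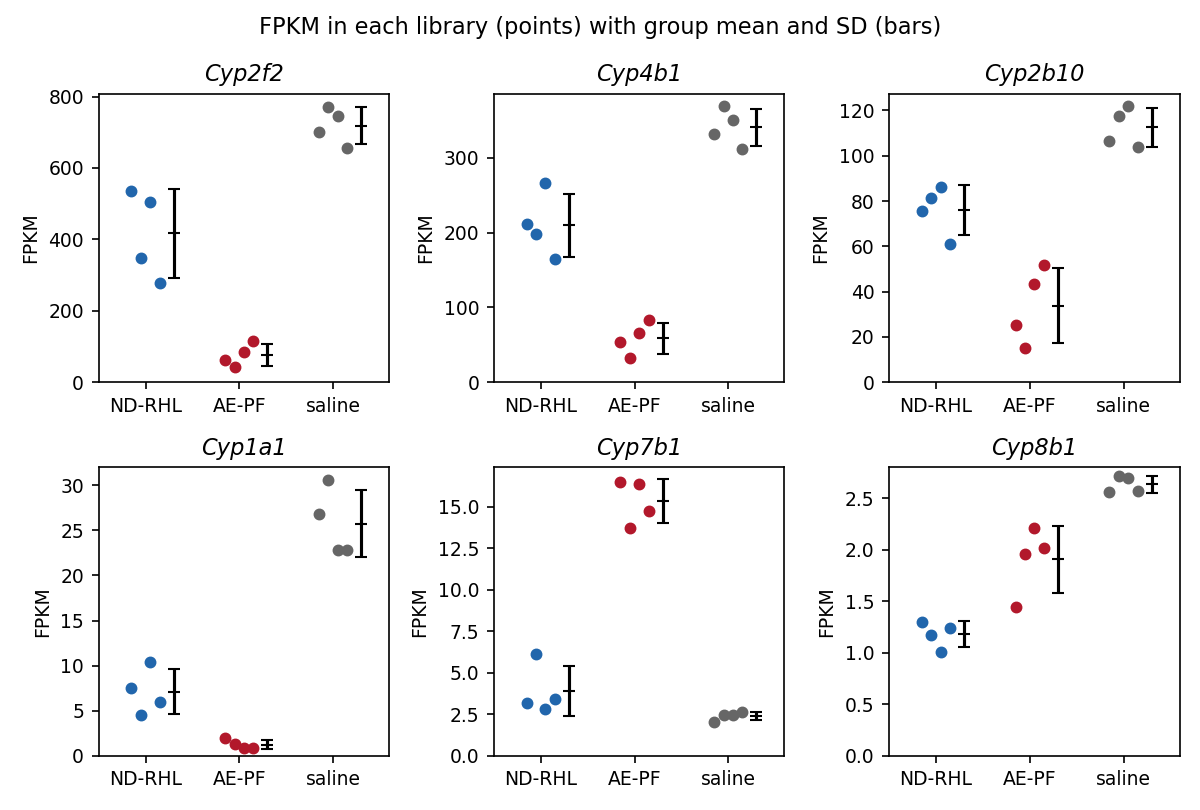
FPKM of 6 P450 genes in each library (points) with the group mean and SD (bars), by group. Cyp2f2, Cyp4b1, Cyp2b10 and Cyp1a1 are lowest in AE-PF lung, Cyp7b1 is highest there at 13.7 to 16.5, and Cyp8b1 is lowest in ND-RHL lung at 1.00 to 1.296.

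The largest role group among the tested members was that of fatty acid and eicosanoid enzymes, with 12 of 26 tested. Against saline, 4 of the 12 were lower in AE-PF lung and 1 higher; in ND-RHL lung 6 were higher and 1 lower than in AE-PF lung, and 2 were higher and 1 lower than in saline lung. The share lower than saline in AE-PF lung, 33.3%, was near the 30.2% of all genes, and the share higher, 8.33%, stood against 26.4%. For ND-RHL against AE-PF lung, the 50% higher and 8.33% lower stood against 24.3% and 17.4%. For ND-RHL against saline lung, the 16.7% higher and 8.33% lower were near the 13.3% and 8.65% of all genes. Cyp4b1 (chromosome 4, 115624725 to 115647723, minus strand), a fatty acid hydroxylase that also activates inhaled protoxins such as 4-ipomeanol, was at 212, 198, 266 and 164 FPKM in ND-RHL, at 53.3, 32.4, 65.3 and 82.97 in AE-PF and at 332, 369, 350.2 and 311.8 in saline lung. The 3 groups were separate. The log2 difference was -2.597 ± 0.24 for AE-PF against saline (adjusted p = 7.96e-06) and 1.88 ± 0.24 for ND-RHL against AE-PF (0.000180). For ND-RHL against saline it was -0.71 ± 0.24 with an adjusted p of 0.0519, and it passed in 8 of 22 alternative settings, with 0.00563 to 0.0460, among them leaving out AE-PF library 2, AE-PF library 4 or ND-RHL library 3.

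Cyp2f2 and Cyp4b1 did not keep the same proportion in every group. The ratio of Cyp2f2 to Cyp4b1 FPKM was 1.69 to 2.53 in ND-RHL, 1.18 to 1.38 in AE-PF and 2.09 to 2.13 in saline libraries, which is a description with no test. The ratio of Scgb1a1 to Cyp2f2 was 29.8 to 44.0 in ND-RHL, 49.3 to 109 in AE-PF and 37.0 to 51.1 in saline libraries. Of 14 club and secretory cell markers tested, 13 were lower in AE-PF than saline lung, against 30.2% of all genes tested. In ND-RHL lung 9 were higher than in AE-PF lung and 3 lower than in saline lung, against 24.3% and 8.65%. Those with the smallest p, Cbr2, Gsta3 and Gabrp, were at 1356 ± 384, 25.3 ± 6.07 and 21.1 ± 7.86 FPKM in ND-RHL, at 266 ± 44.8, 11.0 ± 3.05 and 6.61 ± 1.59 in AE-PF and at 1864 ± 65.6, 47.3 ± 2.02 and 39.7 ± 2.08 in saline lung (SD, n = 4 each). All 10 markers of alveolar type 2 cells and all 10 of ciliated cells were also lower in AE-PF than saline lung and higher in ND-RHL than AE-PF lung. The part of a change in cell numbers in the P450 differences was not tested.

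Cyp4f15, an enzyme of leukotriene and fatty acid omega-hydroxylation, averaged 2.07 ± 0.8285 FPKM in ND-RHL, 0.579 ± 0.273 in AE-PF and 4.70 ± 0.394 in saline lung (SD, n = 4 each). The groups were separate, and it was 1 of the 3 members lower in ND-RHL than saline lung (log2 difference -0.93 ± 0.19, adjusted p = 0.00589). It was also lower in AE-PF than saline lung (-1.87, adjusted p = 1.34e-05) and higher in ND-RHL than AE-PF lung (0.93, 0.00247). Cyp4a12b, a fatty acid omega-hydroxylase that in mouse kidney makes 20-HETE, was at 2.66, 0.0258, 0.301 and 0.960 FPKM in ND-RHL, at 0, 0, 0.0247 and 0 in AE-PF and at 3.37, 1.53, 0.828 and 2.91 in saline lung. The 4 AE-PF libraries together held 1 fragment of it, and the saline libraries 40 to 175 each. The log2(FPKM + 1) difference for AE-PF against saline was -1.57 ± 0.37 (adjusted p = 0.00368); its size depends on the pseudocount. For ND-RHL against AE-PF it was 0.81 (0.0994), and with a pseudocount of 0.1 the test passed at 0.0251, as it did at 0.0375 without ND-RHL library 2. Without ND-RHL library 1 the difference from saline passed at 0.0292. Like Cfd, Cyp4a12b had its 3 highest values in saline libraries 1 and 4 and ND-RHL library 1, and 36.2% of its 100-base windows also occur in other genes, most often Cyp4a12a, which had 2 fragments in all.

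Cyp4f16, another fatty acid omega-hydroxylase of the 4F subfamily, was at 8.97, 9.97, 8.72 and 8.77 FPKM in ND-RHL, at 11.4, 8.91, 12.6 and 11.3 in AE-PF and at 6.59, 6.66, 7.42 and 6.50 in saline lung. Both challenged groups lay above every saline library. The log2 difference was 0.62 ± 0.09 for AE-PF against saline (adjusted p = 0.000139) and 0.37 ± 0.09 for ND-RHL against saline (0.0128). Its difference between ND-RHL and AE-PF (-0.25, adjusted p = 0.0429) was lost in 12 of 22 alternative settings, with 0.0543 to 0.109, among them the fit with replicate numbers as a block, at 0.0655. Cyp4f16 shares 9.80% of its 100-base windows with other genes, most often Cyp4f37.

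Cyp4f18, a leukotriene B4 hydroxylase of mouse neutrophils, was at 7.88, 8.01, 7.92 and 9.58 FPKM in ND-RHL lung. It was at 8.11, 6.47, 7.33 and 9.35 in AE-PF lung and at 5.18, 4.86, 7.81 and 6.99 in saline lung. Every ND-RHL library lay above every saline library, but neither difference from saline passed (log2 difference 0.30, adjusted p = 0.0841 for AE-PF and 0.39, 0.0645 for ND-RHL). With replicate numbers as a block both passed, with adjusted p of 0.0398 and 0.0369. Exons of Zfp961 overlap it on the other strand. Cyp4v3, a fatty acid hydroxylase whose human counterpart CYP4V2 is mutated in Bietti crystalline dystrophy, averaged 12.3 ± 1.39 FPKM in ND-RHL, 8.52 ± 0.984 in AE-PF and 10.3 ± 0.946 in saline lung (SD, n = 4 each). It was higher in ND-RHL than AE-PF lung (log2 difference 0.48, adjusted p = 0.00236), and its call as lower in AE-PF than saline lung (-0.24, 0.0453) was lost in 13 of 22 alternative settings, with 0.0513 to 0.380. Exons of Gm45753 overlap it on the same strand.

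The other tested members of this group differed by less than 2-fold. Cyp2j6 and Cyp2j9, of the subfamily that makes epoxides of arachidonic acid, averaged 6.43 ± 0.319 and 2.52 ± 0.400 FPKM in ND-RHL, 5.97 ± 0.381 and 1.39 ± 0.391 in AE-PF, and 5.52 ± 0.279 and 1.90 ± 0.209 in saline lung (SD, n = 4 each). Cyp2j9 was higher in ND-RHL than AE-PF lung (log2 difference 0.56, adjusted p = 0.00336). Its difference between AE-PF and saline (-0.29, 0.0561) passed in 5 settings, with 0.00339 to 0.0467, among them leaving out AE-PF library 2 or ND-RHL library 4 alone. Its difference between ND-RHL and saline (0.28, 0.119) passed at 0.0192 without both. Cyp2j6 was higher in ND-RHL than saline lung (0.19, adjusted p = 0.0326), a call lost in 9 of 22 alternative settings, with 0.0595 to 0.173. Cyp4f13 and Cyp4a32 were higher in ND-RHL than AE-PF lung, with log2 differences of 0.28 (adjusted p = 0.00643) and 0.37 (0.0213), although single libraries of the 2 groups overlapped. The Cyp4a32 call was lost in 7 of 21 settings, with 0.0510 to 0.246, and the Cyp4f13 call in 2, with 0.0595 to 0.0655. Cyp4a32 shares 20.1% of its 100-base windows with other genes, most often Cyp4a10.

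Cyp4f17 averaged 3.63 ± 0.618 FPKM in ND-RHL, 3.88 ± 0.391 in AE-PF and 3.27 ± 0.101 in saline lung (SD, n = 4 each). Every AE-PF library lay above every saline library, but no comparison passed. The difference between AE-PF and saline (log2 0.19, adjusted p = 0.0953) passed in 3 settings, at 0.0138 with equal FPKM totals, 0.0387 with only the 2 groups and 0.0455 without ND-RHL library 3. Cyp4f39, which makes the very long omega-hydroxy fatty acids of the skin barrier, was at 3.71, 2.97, 3.95 and 11.9 FPKM in ND-RHL, at 3.89, 3.89, 4.72 and 4.198 in AE-PF and at 3.18, 3.44, 3.33 and 2.74 in saline lung. Its highest value was in ND-RHL library 4, where the squamous keratin Krt13 reached 2948 FPKM and the skeletal muscle actin gene Acta1 955. Every AE-PF library lay above every saline library, and this difference (log2 0.31, adjusted p = 0.379) passed at 0.0113 without ND-RHL library 4. Without that library the log2 difference for ND-RHL against AE-PF was -0.19, against 0.19 with it.

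Of the 5 sterol and bile acid enzymes 4 were tested. Cyp7b1 (chromosome 3, 18071950 to 18243338, minus strand), the oxysterol 7-alpha-hydroxylase, was at 3.17, 6.15, 2.83 and 3.40 FPKM in ND-RHL, at 16.5, 13.7, 16.4 and 14.7 in AE-PF and at 2.05, 2.44, 2.45 and 2.65 in saline lung. AE-PF libraries were far above all others, and every ND-RHL library was above every saline one. Mean Cyp7b1 FPKM was 6.39-fold higher in AE-PF than saline lung (log2 difference 2.26 ± 0.16, adjusted p = 2.25e-06) and 3.94-fold lower in ND-RHL than AE-PF lung (-1.78 ± 0.16, adjusted p = 3.56e-05). The difference between ND-RHL and saline was 0.48 ± 0.16 with an adjusted p of 0.0551. It passed with a pseudocount of 0.1 and without ND-RHL library 3, at 0.0314 to 0.0459.

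Ch25h, which makes the 25-hydroxycholesterol that Cyp7b1 breaks down, averaged 2.68 ± 1.00 FPKM in ND-RHL, 17.8 ± 4.23 in AE-PF and 1.71 ± 0.334 in saline lung (SD, n = 4 each). It was higher in AE-PF than saline lung (log2 difference 2.78, adjusted p = 1.97e-06) and lower in ND-RHL than AE-PF lung (-2.37, 2.03e-05). Of the 7 oxysterol synthesis and sensing genes tested, 3 were higher and 3 lower in AE-PF than saline lung. In ND-RHL lung 1 was higher and 2 lower than in AE-PF lung, and 1 was higher and 1 lower than in saline lung. Over all genes tested, the higher and lower shares were 26.4% and 30.2%, 24.3% and 17.4%, and 13.3% and 8.65%. The cholesterol exporter gene Abca1 averaged 13.8 ± 0.569, 26.6 ± 2.66 and 12.0 ± 0.982 FPKM in ND-RHL, AE-PF and saline lung, and the oxysterol receptor gene Nr1h3 16.4 ± 1.57, 13.8 ± 2.68 and 26.6 ± 1.29.

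Cyp27a1, the mitochondrial sterol 27-hydroxylase, was at 18.1, 15.4, 19.1 and 21.9 FPKM in ND-RHL, at 8.30, 9.24, 11.3 and 10.6 in AE-PF and at 16.5, 18.9, 16.96 and 15.4 in saline lung. Cyp39a1, which hydroxylates 24-hydroxycholesterol, was at 9.05, 8.66, 10.0 and 7.32 in ND-RHL, at 3.94, 3.97, 4.51 and 4.49 in AE-PF and at 9.06, 10.5, 10.2 and 9.13 in saline lung. For both genes AE-PF libraries lay below all others, and ND-RHL and saline libraries overlapped. The log2 difference for AE-PF against saline was -0.73 ± 0.11 for Cyp27a1 (adjusted p = 0.000231) and -1.03 ± 0.08 for Cyp39a1 (4.57e-06). For ND-RHL against AE-PF it was 0.85 ± 0.11 (0.000214) and 0.90 ± 0.08 (3.98e-05).

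Cyp8b1, the sterol 12-alpha-hydroxylase of bile acid synthesis, had a different order. It was at 1.296, 1.17, 1.00 and 1.24 FPKM in ND-RHL, at 1.45, 1.96, 2.21 and 2.01 in AE-PF and at 2.56, 2.71, 2.696 and 2.57 in saline lung, from 37 to 46, 48 to 73 and 82 to 108 fragments a library. The groups were separate, and ND-RHL was lowest. The log2 difference was -0.33 ± 0.08 for AE-PF against saline (adjusted p = 0.00641), -0.41 ± 0.08 for ND-RHL against AE-PF (0.00307) and -0.74 ± 0.08 for ND-RHL against saline (0.000385). Among the 28 it was the only member that was called lower in all 3 comparisons. Cyp46a1, the cholesterol 24-hydroxylase best known in neurons, did not reach the filter, and its highest value was 1.13 FPKM in AE-PF library 2.

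Cyp26b1, which breaks down retinoic acid, was the only tested member of 3 with that role. It was at 6.33, 14.1, 4.07 and 5.70 FPKM in ND-RHL, at 12.5, 19.3, 7.82 and 6.46 in AE-PF and at 10.6, 9.95, 10.4 and 9.23 in saline lung. The challenged groups spread widely around the narrow saline range, and no comparison passed (adjusted p = 0.875, 0.207 and 0.328 for AE-PF against saline, ND-RHL against AE-PF and ND-RHL against saline). Without ND-RHL library 2 the second passed at 0.0348. Of 10 retinoic acid synthesis and binding genes tested, 7 were lower and 2 higher in AE-PF than saline lung. In ND-RHL lung 5 were higher and 2 lower than in AE-PF lung, and 0 were higher and 3 lower than in saline lung. Over all genes tested, the higher and lower shares were 26.4% and 30.2%, 24.3% and 17.4%, and 13.3% and 8.65%. Lrat, which stores retinol as esters, averaged 11.5 ± 1.98 FPKM in ND-RHL, 2.598 ± 1.302 in AE-PF and 15.8 ± 1.55 in saline lung, the receptor gene Rarg 20.01 ± 1.03, 17.1 ± 1.61 and 29.8 ± 1.45, and the retinal dehydrogenase gene Aldh1a1 253 ± 68.3, 112 ± 11.1 and 318 ± 20.5 in the same groups.

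Of 3 vitamin D enzymes only Cyp2r1, a 25-hydroxylase, was tested, at 0.960 ± 0.233 FPKM in ND-RHL, 0.969 ± 0.131 in AE-PF and 0.935 ± 0.373 in saline lung, and it passed in no comparison. None of the 4 steroid hormone enzymes reached the filter, and the highest of their values was 0.150 FPKM for Cyp11a1. Of 5 less studied members 2 were tested. Cyp2s1, an epithelial enzyme of little known substrate, was at 33.4, 24.9, 29.7 and 31.7 FPKM in ND-RHL, at 13.8, 11.8, 13.6 and 16.5 in AE-PF and at 33.7, 39.9, 32.2 and 28.1 in saline lung. AE-PF libraries lay below all others, by a log2 difference of -1.21 ± 0.12 from saline (adjusted p = 1.63e-05), and ND-RHL was higher than AE-PF by 1.05 ± 0.12 (0.000120). Exons of Gm26707 overlap Cyp2s1 on the other strand.

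Cyp20a1, a P450 with no settled substrate, was at 19.5, 20.4, 19.2 and 15.7 FPKM in ND-RHL, at 23.5, 25.98, 21.97 and 22.4 in AE-PF and at 18.0, 15.8, 18.6 and 20.6 in saline lung. AE-PF libraries were above all others, with a log2 difference of 0.35 ± 0.09 from saline (adjusted p = 0.00789) and of -0.32 ± 0.09 for ND-RHL against AE-PF (0.0198). The first call was lost without AE-PF libraries 1 and 2 (0.0735). The second was lost in 3 settings, with 0.0527 to 0.148, 1 of them leaving out only AE-PF library 2.

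The 55 members below the filter were mostly undetected. In 36 no library reached 0.1 FPKM, in 16 the highest value was between 0.1 and 1, and 31 of the 83 members had fewer than 10 fragments over all 12 libraries. Only Cyp2c65, Cyp46a1 and Cyp2ab1 reached 1 FPKM in any library. Cyp2c65 was at 1.58 FPKM in ND-RHL library 4 and at 0.631 in AE-PF library 2, and at 0 to 0.0573 in all others. Cyp2c66 and Cyp2w1 were also highest in these 2 libraries, at 0.384 and 0.303 in ND-RHL library 4 and at 0.171 and 0.219 in AE-PF library 2. Those are the libraries with Krt13 at 2948 and 899 FPKM and Acta1 at 955 and 368.

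Members lie in clusters on the chromosomes. On chromosome 7, 13 members lie between 25802475 and 27158668 (GRCm38), and 4 of them were tested: Cyp2s1, Cyp2b10, Cyp2a5 and Cyp2f2. All 4 were lower in AE-PF than saline lung and higher in ND-RHL than AE-PF lung, against 30.2% and 24.3% of all genes tested. Of the 13, 4 had fewer than 10 fragments in all. On chromosome 17, 8 Cyp4f members lie between 32452723 and 32947402, and the 5 tested there did not share a direction: against saline, Cyp4f15 was lower and Cyp4f16 higher in AE-PF lung, and Cyp4f13, Cyp4f17 and Cyp4f39 passed in neither. The Cyp2c cluster on chromosome 19 and the Cyp3a cluster on chromosome 5 had 8 and 5 members, and 0 of either were tested.

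P450s need partners that supply electrons and haem. Over all genes tested, 26.4% were higher and 30.2% lower in AE-PF than saline lung, 24.3% and 17.4% in ND-RHL than AE-PF lung, and 13.3% and 8.65% in ND-RHL than saline lung, and the list counts stand beside these shares. Of 13 electron donors and haem genes tested, 7 were lower and 3 higher in AE-PF than saline lung, 5 were higher and 3 lower in ND-RHL than AE-PF lung, and 0 were higher and 1 lower in ND-RHL than saline lung. The 3 of 13 (23.1%) were near the share of all genes higher in AE-PF than saline lung. The 13 include Hmox1 and Hmox2, which break haem down. Por, the reductase that feeds electrons to microsomal P450s, averaged 59.4 ± 7.65 FPKM in ND-RHL, 31.6 ± 1.01 in AE-PF and 66.8 ± 5.52 in saline lung (SD, n = 4 each), with a log2 difference of -1.05 for AE-PF against saline (adjusted p = 4.57e-06) and 0.88 for ND-RHL against AE-PF (4.63e-05). Cyb5a, which encodes cytochrome b5, averaged 48.7 ± 5.45, 32.2 ± 3.32 and 55.4 ± 2.88 FPKM in ND-RHL, AE-PF and saline lung, and the haem-binding partner gene Pgrmc1 119 ± 11.7, 89.3 ± 3.81 and 142 ± 2.20. Among 9 tested genes of nuclear and xenobiotic receptors and related factors, 5 were lower and 0 higher in AE-PF than saline lung. In ND-RHL lung 3 were higher and 0 lower than in AE-PF lung, and 0 were higher and 1 lower than in saline lung. Arnt, Tiparp and Nfe2l2, among the 9, are not themselves receptor genes. Nr3c1, the glucocorticoid receptor gene, averaged 30.9 ± 2.46 FPKM in ND-RHL, 23.3 ± 2.50 in AE-PF and 33.7 ± 1.52 in saline lung, and Rxrb 13.4 ± 0.586, 12.2 ± 0.762 and 14.4 ± 0.565.

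Conjugation enzymes act on the products of P450s. The counts below stand against 26.4% of all genes higher and 30.2% lower in AE-PF than saline lung. These shares were 24.3% and 17.4% for ND-RHL against AE-PF lung, and 13.3% and 8.65% for ND-RHL against saline lung. Of 23 conjugation and companion enzymes tested, 15 were lower and 2 higher in AE-PF than saline lung, 12 higher and 1 lower in ND-RHL than AE-PF lung, and 0 higher and 3 lower in ND-RHL than saline lung. Gstm1, a glutathione transferase, averaged 217 ± 33.7 FPKM in ND-RHL, 78.0 ± 10.6 in AE-PF and 291 ± 9.19 in saline lung (SD, n = 4 each), and the aldehyde oxidase gene Aox3 17.3 ± 5.58, 3.45 ± 1.29 and 27.2 ± 1.39. The list shares Cbr2, Gsta3 and Aldh1a1 with the club cell list. Of 12 eicosanoid enzymes tested, 6 were higher and 3 lower in AE-PF than saline lung, 4 higher and 5 lower in ND-RHL than AE-PF lung, and 5 higher and 0 lower in ND-RHL than saline lung. The 3 of 12 lower in AE-PF lung (25%) were near the 30.2% of all genes. The prostaglandin D synthase gene Hpgds averaged 2.01 ± 0.654, 4.26 ± 0.205 and 0.592 ± 0.165 FPKM in ND-RHL, AE-PF and saline lung, and Hpgd, which inactivates prostaglandins, 302 ± 60.3, 77.8 ± 19.3 and 172 ± 7.05. Tbxas1, the thromboxane synthase and a P450 without a Cyp symbol, averaged 2.54 ± 0.555 FPKM in ND-RHL, 3.93 ± 0.501 in AE-PF and 1.02 ± 0.0508 in saline lung and was higher than saline in both challenged groups (adjusted p = 4.96e-06 for AE-PF and 0.000838 for ND-RHL).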

How the data were processed

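RNA from lung tissue taken at the end point of the model was sequenced on a DNBSEQ-G400 after selection of poly(A) RNA, per the labels' protocols. The authors deposited 1 table of FPKM values for 12 libraries. FastQC, Trim Galore 0.6.6, STAR 2.7.9a, Subread 2.0.1 (featureCounts) and DESeq2 1.30.1 with GRCm38 or mm10 are named in the submitters' processing notes. Strand and multimapping settings were not given in the sources used here.

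The 83 P450 genes and all gene lists were chosen with earlier results of these data known. The 15164 genes that reached 1 FPKM in 4 or more libraries were tested on log2(FPKM + 1), a scale that understates changes of low genes, with limma 3.58.1 in R 4.3.3 (trended variance, all 12 libraries in 1 fit with 9 residual degrees of freedom, 2-sided, Benjamini-Hochberg adjustment over all genes tested, threshold 0.05). The depth of each library was inferred from the smallest step in the FPKM values of short RNA genes. At these depths 3 fragments of a 1 kb gene are 0.138 to 0.186 FPKM, a limit that covers counting error only. With these depths, the FPKM values of all 35599 genes (100%) were whole fragments within 1e-07 fragments for some gene length. Limma-voom on these fragments was an alternative. The step was tested on simulated data.

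Every tested P450 gene is named. Those with the smallest adjusted p, a high level or a known role in lung are given in every library, members below the filter by range, and up to 3 genes of a list by smallest p. Cfd, Bpifa1, Scgb1a1, Krt13, Acta1, Alb, Apoa1, Trf, Nr1i3, Cyp1a2, Cyp2c66 and Cyp2w1 were named after their values were seen, like Ahr. Gene coordinates are GENCODE M21 (GRCm38), matched by gene ID for 83 of 83 genes; the positions in the deposited table differ from these for most genes and were not used.

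Alternatives were a pseudocount of 0.1, an FPKM minimum of 5, no filter, equal FPKM totals, quantile normalisation, limma-voom, only the 2 groups compared, a replicate block, and leaving out each library, AE-PF library 2 with ND-RHL library 4, or (chosen after seeing the data) AE-PF libraries 1 and 2. The labels number the libraries 1 to 4 in each group without saying what a number marks. Same-numbered libraries' deviations from the group means correlated at 0.114 to 0.397 for ND-RHL and saline. They correlated at -0.387 to 0.339 for ND-RHL and AE-PF, and at -0.181 to 0.0651 for AE-PF and saline. Unlike numbers also reached 0.316 (saline library 2, ND-RHL library 3) and 0.275 (saline library 3, ND-RHL library 2). Others went down to -0.420 (saline library 3, ND-RHL library 1). A pairing was thus not established, and the main fit used none.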

Additional observations from a re-analysis of the deposited data

Results flagged for a closer look

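In 93 groups of 4 values (31 P450 genes in 3 groups), 9 held 1 library far from the other 3 by Dixon's criterion. Chance meets this criterion in about 1 in 20 groups. The 31 were the 28 tested genes and the 3 untested ones in which some library reached 1 FPKM. Cyp2c65, 1 of these 3, entered through ND-RHL library 4 alone, so its flags cannot be set against the chance rate. Of the 9, 4 were in ND-RHL library 4 and 3 in AE-PF library 2, the libraries with 2948 and 899 FPKM of the squamous keratin Krt13 and summed FPKM of 8 skeletal muscle markers of 1838 and 748. In ND-RHL library 4, Cyp4f39 was at 11.86 FPKM against 2.97 to 3.95 in the other 3 ND-RHL libraries, Cyp3a13 at 4.609 against 1.09 to 1.38, Cyp4f18 at 9.576 against 7.88 to 8.01, and Cyp2c65 at 1.58 against 0. In AE-PF library 2, Cyp4f17 was at 4.465 FPKM against 3.66 to 3.70 in the other 3 AE-PF libraries, Cyp3a13 at 1.573 against 0.355 to 0.457, and Cyp2c65 at 0.6315 against at most 0.0573. The part of squamous or skeletal muscle transcripts in these values was not tested.

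Cyp7b1 was at 6.145 FPKM in ND-RHL library 2, against 2.83 to 3.40 in the other 3 ND-RHL libraries. Cyp4a12b was at 0.02467 FPKM in AE-PF library 3, which is 1 fragment, and at 0 in the other 3 AE-PF libraries.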

How the results depend on the processing

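Of 84 log2 differences (28 genes, 3 comparisons), 41 passed. The FPKM minimum of 5 left out 10 genes, so 21 alternatives were run for these and 22 for the other 18. Of 31 calls run under 22, 24 passed under all, and of 10 run under 21, 8 did; 9 were lost under some, and 0 of the 41 turned round. The counts of P450 genes higher and lower in AE-PF than in saline lung were 3 and 15 of 28. They stayed within 3 to 4 and 13 to 16 when each library was left out. The lower count was 11 of 18 tested (61.1%, against 31.4% of all genes) at an FPKM minimum of 5. With no filter it was 17 of 83 (20.5% against 14.0%). The higher count was 2 without AE-PF libraries 1 and 2, and 6 with equal FPKM totals. It was 5 with only the 2 groups or with AE-PF library 2 and ND-RHL library 4 both left out. For ND-RHL against AE-PF the counts of 14 and 4 ranged over 13 to 15 and 3 to 5 when each library was left out. Over the other alternatives the higher count was 12 to 16. At an FPKM minimum of 5 it was 12 of 18 tested (66.7%, against 25.2% of all genes). Without AE-PF libraries 1 and 2 it was 12 of 28 (42.9% against 13.1%). With no filter it was 15 of 83 (18.1% against 9.62%). It was 16 of 28 with a pseudocount of 0.1, or with AE-PF library 2 and ND-RHL library 4 both left out. For ND-RHL against saline the counts of 2 and 3 ranged over 1 to 3 and 3 to 6 when each library was left out. The higher count was 1 with no filter (of 83 tested), quantile normalisation or limma-voom. It was also 1 without saline library 2, saline library 4, ND-RHL library 1 or ND-RHL library 2. With AE-PF library 2 and ND-RHL library 4 both left out it was 5. The lower count was 6 without AE-PF library 2 (also with ND-RHL library 4 left out), 5 without AE-PF library 4 or ND-RHL library 1, and 7 with only the 2 groups or without AE-PF libraries 1 and 2. With the replicate block the counts were 4 and 15 for AE-PF against saline, 14 and 3 for ND-RHL against AE-PF, and 3 and 3 for ND-RHL against saline; the block changed no call other than those of Cyp4f16 and Cyp4f18. Differences that had not passed changed sign as follows. With equal totals, Cyp4f18 and Cyp2j6 for ND-RHL against AE-PF were -0.01085 and -0.005444. With quantile normalisation, Cyp2r1 and Cyp1b1 for ND-RHL against saline were -0.07543 and -0.001385. With AE-PF library 2 and ND-RHL library 4 both left out, Cyp26b1 for AE-PF against saline was -0.20, Cyp2r1, Cyp4f17, Cyp4f18 and Cyp4f39 for ND-RHL against AE-PF 0.02431, 0.001807, -0.04603 and -0.22, and Cyp1b1 for ND-RHL against saline -0.10. Without AE-PF libraries 1 and 2, Cyp26b1, Cyp2r1 and Cyp1b1 for AE-PF against saline were -0.44, -0.02719 and -0.08778, and Cyp2r1 and Cyp1b1 for ND-RHL against AE-PF 0.05621 and 0.15. Leaving out each library gave -0.20 to 0.28 for Cyp26b1 and -0.05348 to 0.16 for Cyp2r1 (AE-PF against saline), -0.06969 to 0.06922 for Cyp2r1 and -0.19 to 0.37 for Cyp4f39 (ND-RHL against AE-PF), and -0.10 to 0.22 for Cyp1b1, -0.02885 to 0.11 for Cyp20a1, -0.69 to 0.47 for Cyp2e1 and -0.06602 to 0.15 for Cyp2r1 (ND-RHL against saline). The cause of these shifts was not tested. Leaving out 1 library ended the calls of Cyp3a13 for AE-PF against saline (saline libraries 3 and 4, AE-PF libraries 1, 3 and 4), Cyp20a1 for ND-RHL against AE-PF (AE-PF library 2), Cyp2j6 for ND-RHL against saline (saline libraries 2 to 4, ND-RHL libraries 1 to 3), Cyp4a32 for ND-RHL against AE-PF (AE-PF library 2, ND-RHL libraries 2 and 3), Cyp4f16 for ND-RHL against AE-PF (saline libraries 1, 2 and 4, AE-PF libraries 1, 3 and 4, ND-RHL libraries 1, 3 and 4) and Cyp4v3 for AE-PF against saline (saline libraries 2 to 4, AE-PF libraries 1 and 2, ND-RHL libraries 1 and 2). Cyp4f18 passed for AE-PF against saline without saline library 3 or AE-PF library 2, and for ND-RHL against saline without saline library 3. Cyp4f13 passed for AE-PF against saline without AE-PF library 3, and Cyp4a32 for ND-RHL against saline without ND-RHL library 4. Depth limits the 55 members below the filter, where a few fragments set a value.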
